A study of Mus musculus with 8 samples.

Results

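The cells described here are KL cells, the c-Kit-positive, lineage-negative cells of mouse bone marrow (BM), that carried RNA of Irf8, Csf1r and Ly86 together. A cell was taken when it had at least 1 raw UMI (unique molecular identifier, 1 counted RNA molecule) of each of these 3 genes, at most 1 UMI of Siglech, fewer than 30 UMIs of the granule genes Camp, Ngp and Ltf in sum, and not both Fn1 and Ccr2. The rule took 2189 of 29891 cells, or 7.32%, and all 2189 are counted below as Irf8 Csf1r Ly86 cells. They came from 8 libraries, each a pool of 2 or 3 female B6 mice aged 3 to 4 months, with 10 mice listed per group. SPF mice were kept free of specific pathogens, and their pools are numbered 1, 2, 7 and 8. CVT mice were raised in the same way, moved to a conventional facility and housed for 1 month with mice born there, and their pools are numbered 3, 4, 5 and 6. No allele or agent was used, both groups share the B6 background, and every cell had passed the same sort for CD117 (Kit) and against CD3, CD4, CD8, CD45R, CD11b, TER119 and GR1. A pool is the replicate, so p-values measure the spread between pools, and mice within a pool cannot be told apart.

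Monocyte-dendritic progenitors are BM cells that give rise to monocytes and dendritic cells. They are known for the receptor of the growth factor CSF1 (Csf1r) and for the cytokine receptor Flt3, and the transcription factor IRF8, acting with PU.1 (Spi1), steers them away from granulocytes. Ly86 encodes MD-1, which binds the toll-like receptor homologue RP105 (Cd180). F13a1 encodes the coagulation factor XIII A subunit made by monocytes, and Tifab encodes a regulator of TRAF6 signalling.

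Of the genes outside the rule that a UMI marked in at least 20% of these cells, F13a1 had the largest excess over all other KL cells, and its promoter is shown because it heads the list of leading genes that the rule did not use. RefSeq (GRCm38.p6) holds 2 promoters of this gene, and the one printed lies on the minus strand at chr13:37049164-37049463, with 250 bases before and 50 bases after the transcript start. The capitals mark the letters GAGGAAGT, a PU.1 motif, at bases 265 to 272 of the printed sequence. The other promoter held none of the motifs searched.

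F13a1 promoter: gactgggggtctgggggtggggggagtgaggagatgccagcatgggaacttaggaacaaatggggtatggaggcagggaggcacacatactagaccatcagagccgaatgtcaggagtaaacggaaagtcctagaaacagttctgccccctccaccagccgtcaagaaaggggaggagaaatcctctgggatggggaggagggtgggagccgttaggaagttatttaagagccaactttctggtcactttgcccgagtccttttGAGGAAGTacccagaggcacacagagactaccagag

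The search covered both strands of the promoters of the 20 leading genes, for 15 of which RefSeq had an entry, with 19 promoters in all. GAGGAAGT stood in 1 of the 19 promoters, that of F13a1, against 3.20% of all 32851 RefSeq promoters of the same length. The composite motif of PU.1 and IRF stood in 2 of the 19, those of Il6st and Hpse, against 2.72% of all promoters. The C/EBP letters TTGCNNAA stood in 1 of the 19, that of Pkib, against 10.8% of all promoters. No promoter held more than 1 of the 3 motifs, and a match is a run of letters and not a measured site.

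The libraries held 1888 to 4845 cells and between 19041749 and 59812346 UMIs each. Each cell had 2759 to 49732 UMIs, and the Irf8 Csf1r Ly86 cells were deep, with a median of 16119 UMIs and 3453 genes against 8412.5 UMIs and 2493 genes in the other cells. There were 522 barcodes seen in more than 1 library. These touched 71 of the Irf8 Csf1r Ly86 cells, and 2 barcodes named a pair of them in different libraries. CVT pools 3 and 4 stood apart from the other 6 in the share of these cells, so the results on shares are given with and without them. Pools 1 to 4 hold the mice numbered 1 to 10 in the labels and pools 5 to 8 those numbered 11 to 20, each set with 2 SPF and 2 CVT pools, and values within the sets are given where they matter.

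The label of a monocyte-dendritic progenitor was met in part. Levels are given as CPM, the UMIs of a gene in the summed cells of a pool scaled to the same total in every pool, and as the mean over 8 pools. F13a1 and Tifab, the markers the rule left free, were both high. F13a1 stood at 273 ± 30.1 CPM (SD, n = 8 pools), 6.03 times the 45.4 CPM of all other cells, and was higher in 8 of 8 pools. Tifab stood at 104 ± 17.7 CPM (SD, n = 8), 4.87 times the level of the other cells, and was again higher in 8 of 8 pools. After each cell was thinned to 2759 UMIs, F13a1 had a UMI in 45.6% of these cells, against 6.76% of the other cells and 1.87% of erythroid cells chosen by Car1 and Ermap, which should lack it and held a median of 17856.5 UMIs before thinning. Cells that met the other clauses but carried both Fn1 and Ccr2 held more of both markers, with F13a1 at 544 CPM and Tifab at 151 CPM. The Irf8 Csf1r Ly86 cells were above them in 0 of 8 pools for either marker. The dendritic side of the label was mixed. The 23 conventional dendritic and MHC class II genes summed to 1510 CPM against 893 CPM in the other cells. Cst3, which many myeloid cells express, made up 1119 CPM of that sum. Of the 23 genes, 7 were above the other cells in every pool and 6 below. Of 5642 genes with a UMI in at least 20% of these cells, 23.7% were above and 26.8% below. Only 7 of the 23 had a UMI in at least 10% of the cells, so these shares cannot be compared directly. H2-DMa, which helps load MHC class II, was at 205 CPM, 1.40 times the other cells. Cd74, the MHC class II invariant chain, was at 16.4 CPM, 0.33 times the other cells and lower in 8 of 8 pools, and Clec9a, a receptor of conventional dendritic cells, was at 2.38 CPM, 6.34 times the other cells but with a UMI in 3.29% of the cells. Flt3 was at 50.6 CPM, 1.26 times the other cells, although above them in 8 of 8 pools. The azurophil granule genes of early granulocyte-monocyte progenitors were abundant, and the cells are therefore called by the genes of the rule and not by the name of a cell type.

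The 20 leading genes, ranked by the ratio of mean CPM to that of the other cells, were Csf1r, Ly86, F13a1, Pyhin1, Nrp1, Ms4a6c, Tifab, Irf8, Klrb1f, Ppfia4, Il6st, Gria3, Hpse, Pkib, Cfp, Lgals1, Ccr2, Unc93b1, Tpm4 and Cx3cr1. This ranking compares the chosen cells with the rest and is a description with no test. Among 5642 genes with a UMI in at least 20% of the cells, 1335 or 23.7% were above the other cells in 8 of 8 pools and 1511 or 26.8% below. A ratio of at least 2 was found for 103 of them, and the leading ratios are read against those counts. Csf1r itself was at 88.9 CPM against 5.57 CPM in the other cells, and Irf8 at 615 against 128 CPM, both fixed by the rule. Ms4a6c, a membrane protein of the monocyte lineage, was at 556 CPM, 5.09 times the other cells. Cfp, the complement factor properdin, was at 74.2 CPM, 3.59 times. Gria3, a glutamate receptor subunit, was at 68.8 CPM, 4.20 times, and it was the one leading gene that was also above the Fn1 and Ccr2 cells in 8 of 8 pools.

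The nearest comparison is with the 192 cells that met every clause but carried both Fn1 and Ccr2, genes of committed monocytes. These cells held a median of 7240 UMIs. The 33 monocyte genes summed to 6111 ± 591 CPM (SD, n = 8) in the Irf8 Csf1r Ly86 cells, to 39665 CPM in the Fn1 and Ccr2 cells and to 4245 CPM in all other cells. Fn1 and Ccr2 are among the 33, so the rule fixes part of these differences. Ccr2 was at 98.9 CPM against 573 CPM in the Fn1 and Ccr2 cells. Lyz2, the lysozyme of mature myeloid cells, was at 522 CPM against 17398 CPM in the Fn1 and Ccr2 cells, and S100a4 at 25.5 against 765 CPM. Klf4, a factor of monocyte differentiation, was at 13.1 against 123 CPM. Ly6c2, the surface antigen of classical monocytes, was at 648 against 1790 CPM. Lyz2, S100a4, Klf4 and Ly6c2 were each lower than in the Fn1 and Ccr2 cells in 8 of 8 pools. Clec12a, a myeloid lectin receptor, did not share that order, at 389 against 345 CPM and higher in 7 of 8 pools.

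The second comparison is with 2373 cells that held Mpo and Cebpa but no UMI of Irf8 or Csf1r, with a median of 9660 UMIs. The same granule clause, fewer than 30 UMIs of Camp, Ngp and Ltf in sum, was applied to them. Mpo, the myeloperoxidase of azurophil granules, was at 3196 CPM in the Irf8 Csf1r Ly86 cells, against 2309 CPM in the Mpo Cebpa cells and 1196 CPM in all other cells. Prtn3 (proteinase 3) followed with 3101, 2119 and 1180 CPM in the same order. Both genes were above the Mpo Cebpa cells in 8 of 8 pools, although Mpo was part of how those cells were chosen. Elane (neutrophil elastase) went the other way, at 2486 against 3587 CPM, above in 1 of 8 pools, and so did Ms4a3, a marker of granulocyte-monocyte progenitors, at 292 against 555 CPM, above in 0 of 8. In sum the 9 azurophil genes reached 12505 ± 1276 CPM (SD, n = 8), against 13084 CPM in the Mpo Cebpa cells and 6262 CPM in all others.

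Of the 35 transcription factors of monocyte and dendritic fate that the table holds, 10 were above the other cells in every pool and 10 below. Irf8, a gene of the rule, is among the 10 above. Of the 5642 genes 23.7% were above and 26.8% below, but each of those had a UMI in at least 20% of the cells. Only 25 of the 35 factors had one in at least 10%, so these shares cannot be compared directly. Spi1 (PU.1) was at 223 CPM, 1.79 times the other cells, and Irf5 at 14.6 CPM, 1.90 times, both higher in 8 of 8 pools. Cebpa, which drives granulocyte-monocyte commitment, was at 55.9 CPM, 1.67 times the other cells. Cebpe, a factor of late granulocytes, was at 10.2 CPM, 0.21 times the other cells, and Gata2, a factor of stem, mast and megakaryocyte-erythroid progenitors, at 7.53 CPM, 0.086 times, both lower in 8 of 8 pools. Batf3 and Zbtb46, which mark conventional dendritic cells, were at 0.376 and 0.199 CPM. Tcf4, which drives plasmacytoid dendritic cells, was at 65.7 CPM against 67.2 CPM in the other cells.

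Among the receptors, Kit was at 36.7 CPM, 0.46 times the other cells, although all KL cells were sorted for its protein. Cd34, a progenitor surface antigen, was at 227 CPM, 1.42 times the other cells, and was 1 of the 10 stem cell genes on the list that was above them in every pool, while the other 9 were below. Of the genes for microbial sensing, Unc93b1, which carries toll-like receptors to endosomes, was at 160 CPM and 3.39 times the other cells, and Pycard, the inflammasome adaptor, at 326 CPM and 1.86 times. Tlr2 was at 7.51 CPM and 1.99 times, and Tlr4 at 0.907 CPM. The 32 sensing genes of the table summed to 924 ± 39.5 CPM (SD, n = 8) against 450 CPM in the other cells, with 7 genes above in every pool and 6 below. Of the 5642 genes 23.7% were above and 26.8% below, but each of those had a UMI in at least 20% of the cells. Only 13 of the 32 sensing genes had one in at least 10%, so these shares cannot be compared directly. Ly86 is among the 32 and is a gene of the rule, and without it the sums were 698 ± 17.2 and 416 CPM.

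Genes of lysosomes and proteases were high as a group, with 15 of 19 above the other cells in every pool and 1 below, against 23.7% and 26.8% of the 5642 genes, and a sum of 3620 against 2014 CPM. Cst3 (cystatin C) was at 1119 CPM, 2.19 times the other cells, and Psap (prosaposin) at 298 CPM, 1.86 times. Bcl2, which restrains apoptosis, was at 180 CPM, 2.01 times. Of the 21 DNA replication genes, 13 were above the other cells in every pool and 0 below, for a sum of 2958 against 2544 CPM. Of the 23 mitosis genes, 14 were above and 2 below. The specific and late granule genes were at 1209 CPM, 0.052 times the other cells and below them for 15 of 15 genes, which the granule clause fixes in part. In the erythroid cells the same genes summed to 931 CPM. Those cells had passed the same granule clause, which therefore fixes part of that level too. Erythroid genes summed to 334 CPM against 8220 CPM in the erythroid cells, and the 9 basophil and mast cell genes to 60.9 CPM, with 1 of them in over 10% of the cells.

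**Figure D1:**
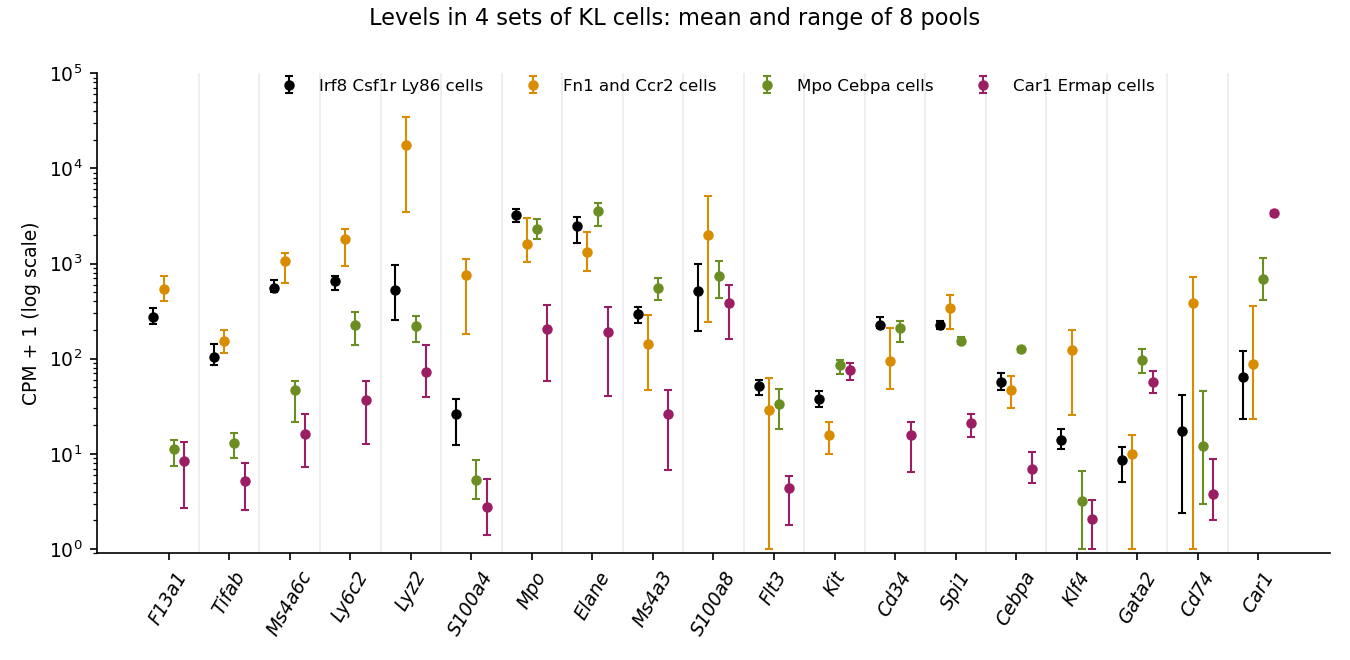
Level of 19 genes (CPM + 1, log axis) in Irf8 Csf1r Ly86 cells (black), Fn1 and Ccr2 cells (orange), Mpo Cebpa cells (green) and Car1 Ermap erythroid cells (purple); points are means of 8 pools and bars run from the lowest to the highest pool. F13a1 and Tifab lie between the Fn1 and Ccr2 cells and the Mpo Cebpa cells, Lyz2 and S100a4 lie far below the Fn1 and Ccr2 cells, and Mpo is highest in the Irf8 Csf1r Ly86 cells.

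The thresholds lay within a continuous range. Values on either side are CPM of the cells summed over all pools. Irf8 had a median of 9 UMIs per cell and Ly86 of 3, but Csf1r had a median of 1, and 1456 cells, or 66.5%, were taken on a single Csf1r UMI. The cells just outside this clause, with every other clause met and no Csf1r UMI, numbered 2809, more than the cells taken. The values on either side of the threshold were close. F13a1 was at 243 CPM with exactly 1 Csf1r UMI and 186 CPM with none, Mpo at 3331 and 3225 CPM, and Flt3 at 50.5 and 56.0 CPM, at median depths of 15902 and 15242 UMIs. The Ly86 clause separated more, with F13a1 at 197 CPM in the 425 cells with exactly 1 Ly86 UMI and 84.4 CPM in the 567 cells with none. For Irf8, F13a1 was at 103 CPM in the 67 cells with exactly 1 UMI and 91.9 CPM in the 51 cells with none. The granule clause set aside 15 cells and the Siglech clause 4, too few to compare as a set. Within the cells taken, 1463 had Ccr2 without Fn1, 19 had Fn1 without Ccr2 and 707 had neither, and F13a1 was at 303 CPM in the first and 179 CPM in the last.

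The share of cells taken differed by the depth of the cell. It was 0.50% of cells below 5000 UMIs, 0.993% from 5000 to below 10000, 11.5% from 10000 to below 15000, 22.5% from 15000 to below 20000 and 13.9% from 20000 up. When every cell was thinned to 2759 UMIs before the rule was applied, it took 225 cells, 211 of which were among the 2189. The share is one of cells in which the 3 genes were counted, and cell types also differ in depth, so depth and cell type cannot be told apart here.

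**Figure D2:**
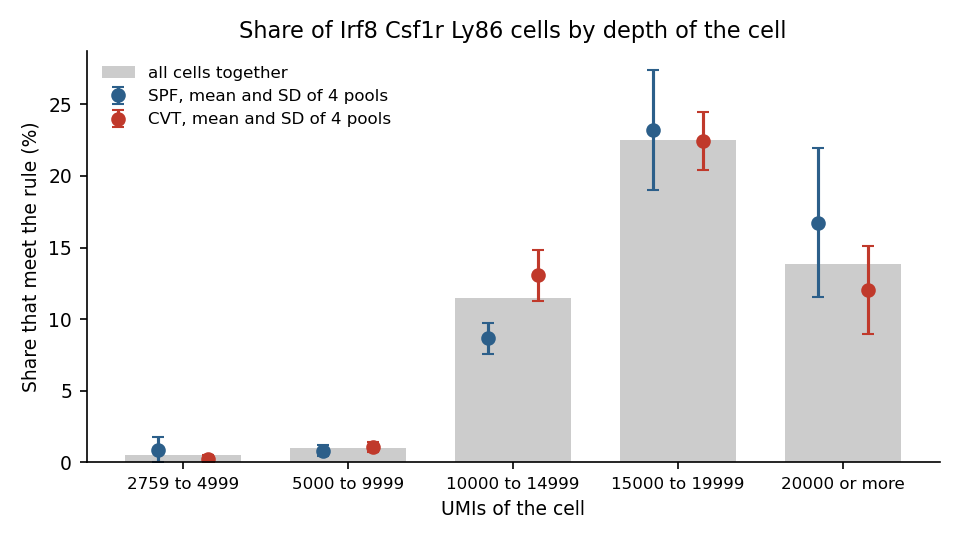
Share of cells that met the rule (%, y axis) by the number of UMIs in the cell (x axis), for all cells together (grey bars) and as mean and SD of 4 SPF pools (blue) and 4 CVT pools (red). For all cells together the share is 0.50% and 0.993% in the bins below 10000 UMIs and peaks at 22.5% between 15000 and 20000 UMIs, with SPF and CVT overlapping in that bin.

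Within the Irf8 Csf1r Ly86 cells, Flt3 and Ly6c2 marked opposite ends. Flt3 had a UMI in 45.8% of the cells and Ly6c2 in 82.7%, and after thinning these were 13.02% and 58.3%. In the erythroid cells, thinned to the same depth, they were 1.11% and 7.18%. Of the Irf8 Csf1r Ly86 cells, 33.4% carried both genes and 12.4% Flt3 without Ly6c2, and after thinning 4.98% and 8.04%. Across 5642 genes, the correlation of log-scaled values over cells was computed in each pool and averaged over 8 pools. It is a description: the cells of a pool share their library, and depth and sparse counts enter every value. The genes most like Ly6c2 were Elane (r = 0.70), Hp (0.61), Ms4a3 (0.60), Gsr (0.59) and Ftl1 (0.59). Those least like it were H2afy (r = -0.53), Ptprcap (-0.51), Egfl7 (-0.48), Sox4 (-0.48) and Eef1a1 (-0.45). For Flt3 the order turned round, with Egfl7 (r = 0.40), Mef2c (0.39), H2afy (0.38), Eef1a1 (0.36) and Ptprcap (0.35) at the top. Elane (r = -0.48), Ly6c2 (-0.44), Prtn3 (-0.43), Ctsg (-0.42) and Hp (-0.42) stood at the bottom. Each of these 20 values had the same sign in 8 of 8 pools.

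The cells of each pool were also ordered by their own Ly6c2 level and divided into 4 equal bins, of 544 to 550 cells over all pools, with median depths from 14964.5 to 16855.5 UMIs. Elane, Ms4a3 and Mpo were higher in the highest than in the lowest bin in 8 of 8 pools. Elane was at 328, 1126.5, 2938 and 5310 CPM from the lowest to the highest bin, Ms4a3 at 38.7, 157, 360 and 580 CPM, and Mpo at 1651, 2633, 3784 and 4526 CPM. Flt3, Cd34 and Dntt were lower in the highest than in the lowest bin in 8 of 8 pools, and Kit, at 44.5 and 30.2 CPM, in 6 of 8. Flt3 was at 96.4, 65.2, 31.5 and 15.4 CPM, Cd34 at 312, 257, 199 and 153 CPM, and Dntt, the terminal transferase of early lymphoid cells, at 119, 35.1, 8.55 and 3.94 CPM. Klf4 and Lyz2, genes of monocyte maturation, had most of their rise in the last bin. Klf4 was at 7.24, 8.12, 11.04 and 25.6 CPM, and Lyz2 at 301, 285, 366 and 1122 CPM. Irf8 was at 672 CPM in the lowest and 587 CPM in the highest bin, lower in 8 of 8 pools. Csf1r was at 91.4 and 89.9 CPM, lower in 5 of 8 pools. Top2a, a gene of dividing cells, was at 321 CPM in the lowest bin and 181 CPM in the highest. Over all the cells of a pool, Dntt ranged from 3.67 to 86.5 CPM between pools.

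**Figure D3:**
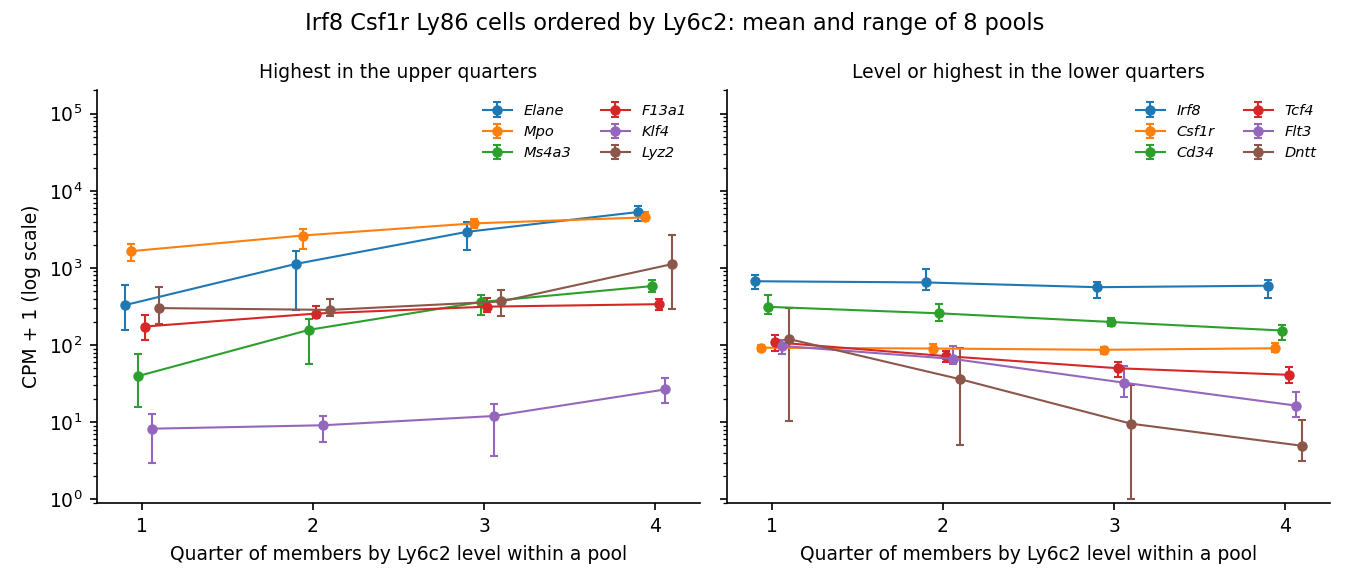
Level of 12 genes (CPM + 1, log axis) in 4 equal bins of the Irf8 Csf1r Ly86 cells, ordered within each pool by Ly6c2 level (x axis, lowest to highest); points are means of 8 pools and bars run from the lowest to the highest pool. Elane goes from 328 to 5310 CPM and Flt3 from 96.4 to 15.4 CPM across the bins, while Csf1r goes from 91.4 to 89.9 CPM.

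The study asked whether wider microbial exposure changes blood-forming cells, and the first comparison is how many KL cells of each pool met the rule. In the SPF pools the share was 6.46% in pool 1 (95% Wilson interval 5.44 to 7.66), 6.63% in pool 2 (5.89 to 7.46), 5.52% in pool 7 (4.62 to 6.59) and 6.26% in pool 8 (5.59 to 7.01). In the CVT pools it was 8.63% in pool 3 (7.87 to 9.45), 11.4% in pool 4 (10.5 to 12.4), 5.71% in pool 5 (5.06 to 6.44) and 6.46% in pool 6 (5.75 to 7.24). The intervals cover counting error only. CVT pools 3 and 4 lay above every SPF pool, and CVT pools 5 and 6 lay within the SPF range. The mean was 8.05% ± 2.56 in CVT and 6.22% ± 0.488 in SPF (SD, n = 4 pools each), a difference of 1.83 percentage points that did not pass (exact permutation test over 70 regroupings, two-sided, p = 0.257, smallest possible 0.0286). Within pools 1 to 4 the means were 10.0% in CVT and 6.55% in SPF, and within pools 5 to 8 they were 6.08% and 5.89%. Without CVT pools 3 and 4 the difference was -0.14 percentage points, and without pool 4 alone 0.71.

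Depth moved with this result. The median UMIs of all cells were 10206 and 12771.5 in CVT pools 3 and 4, the highest of the 8, and 7529.5 to 9102 in the other 6. After thinning, the share was 0.794%, 0.676%, 0.533% and 0.750% in SPF pools 1, 2, 7 and 8 and 0.681%, 1.03%, 0.622% and 0.858% in CVT pools 3 to 6, so that pool 3 no longer stood above SPF. The means were then 0.798% ± 0.184 in CVT and 0.688% ± 0.115 in SPF (SD, n = 4 each, exact permutation test, p = 0.371), and without CVT pools 3 and 4 they were 0.740% and 0.688%. Among cells of 10000 to below 15000 UMIs, the share was 13.1% ± 1.78 in CVT and 8.66% ± 1.10 in SPF (SD, n = 4 each, exact permutation test, p = 0.0286, the smallest possible). This was 1 of 5 depth bins, compared after the data were seen, and over the 5 bins it did not pass (Benjamini-Hochberg adjusted p = 0.143). With 5 bins, 1 bin alone at the smallest possible p cannot pass, so the adjustment does not decide whether this bin differs. Without CVT pools 3 and 4 the means in that bin were 11.95% and 8.66%. From 15000 to below 20000 UMIs the share was 22.4% ± 2.01 in CVT and 23.2% ± 4.18 in SPF, and 21.2% in CVT without pools 3 and 4. From 20000 UMIs up the direction was opposite, at 12.1% ± 3.08 in CVT and 16.7% ± 5.19 in SPF (exact permutation test, p = 0.143, Benjamini-Hochberg adjusted p = 0.357). Below 5000 UMIs the means were 0.244% in CVT and 0.895% in SPF, and from 5000 to below 10000 they were 1.09% and 0.820%. With thinning, 11 to 43 cells met the rule in each pool. The Irf8 Csf1r Ly86 cells themselves were not deeper in CVT, with medians of 15089.5 to 16995 UMIs against 16486 to 17324 UMIs in SPF. The Fn1 and Ccr2 cells made up 0.227% to 0.944% of the CVT pools and 0.416% to 1.60% of the SPF pools, and the difference of their means, 0.514% and 0.979%, did not pass (exact permutation test, n = 4 each, p = 0.20). Without CVT pools 3 and 4 the CVT mean was 0.782%.

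**Figure D4:**
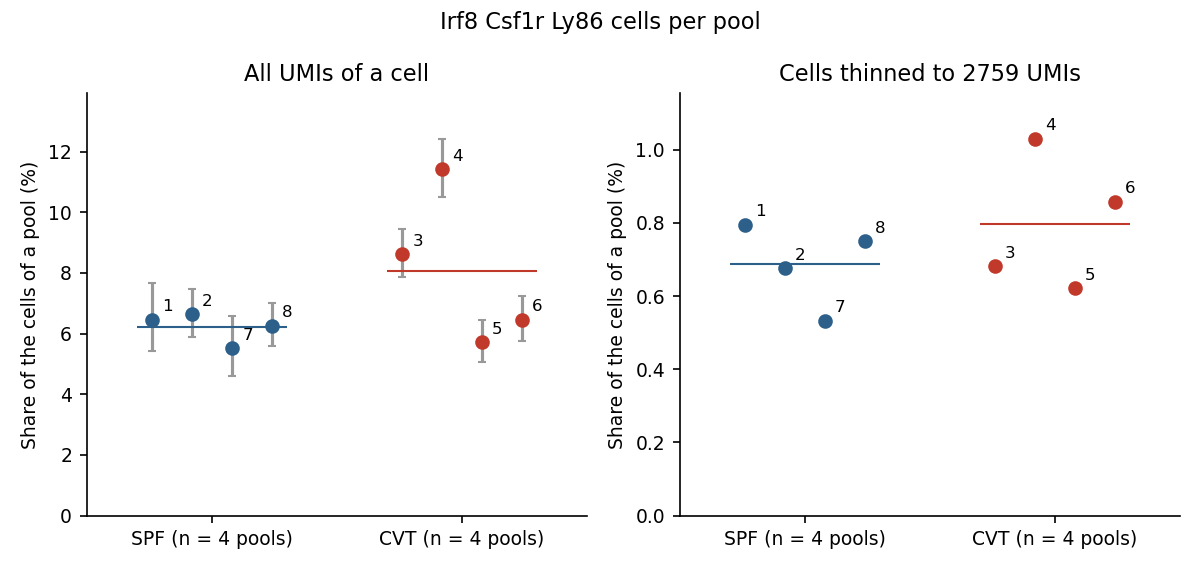
Share of Irf8 Csf1r Ly86 cells among all cells of a pool (%, y axis) in SPF (blue) and CVT (red) pools, with all UMIs (left, grey bars are 95% Wilson intervals) and with every cell thinned to 2759 UMIs (right). Points are pools with their numbers and lines are group means; CVT pools 3 and 4 reach 8.63% and 11.4% on the left, and on the right pools 4 and 6 stand above every SPF pool.

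The second comparison is CVT against SPF within the Irf8 Csf1r Ly86 cells, on UMIs summed per pool. Sums ranged from 1909373 UMIs in SPF pool 1 to 8549696 in CVT pool 4, and the values of SPF pools 1 and 7 rest on the fewest molecules. SPF pools 2 and 8, with 4317780 and 4988414 UMIs, held more than CVT pools 5 and 6, with 3785718 and 4235702. No gene passed in this fit: of 9669 genes tested, 0 were higher and 0 lower in CVT (edgeR quasi-likelihood test, adjusted p under 0.05), or 0% in each direction. Before adjustment, 355 higher and 287 lower genes had a p under 0.05, and DESeq2 called 3, Gstm1, Mgst2 and Clec4a3. The median log2 fold change over all genes was 0.0032. Without overlap between groups, 127 genes (1.31%) lay higher in all CVT pools and 371 (3.84%) lower, and with TMM-scaled values these counts were 225 and 183, so the balance of directions rests on the scaling. The genes named in the next paragraphs are the 10 of smallest p in each direction, and none is a call in the edgeR fit.

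At the head of the higher genes stood a pair of glutathione enzymes. Gstm1, a glutathione S-transferase, was at 96.9, 78.5, 74.7 and 90.6 CPM in SPF pools 1, 2, 7 and 8 and at 115, 118, 101.4 and 117 CPM in CVT pools 3 to 6. Every CVT pool lay above every SPF pool. The log2 fold change was 0.46 ± 0.08 (SE, edgeR adjusted p = 0.130, n = 4 each), and it passed with DESeq2 (adjusted p = 0.0136), with the pool set as a block (0.0133), with a robust prior (0.0168) and when at least 2 UMIs each of Irf8 and Csf1r were asked for (0.0279). Mgst2, a microsomal member of the same enzyme class, was at 29.9, 29.2, 18.5 and 24.9 CPM in the SPF pools and at 37.1, 48.0, 44.4 and 35.4 CPM in the CVT pools, again without overlap. Its log2 fold change was 0.72 ± 0.13 (SE, edgeR adjusted p = 0.130), with an adjusted p of 0.0144 with DESeq2, 0.0133 with the block and 0.0168 with a robust prior. In all other KL cells the log2 fold changes were 0.30 for Gstm1 and 0.08 for Mgst2, and the difference between the cell sets did not pass for either (edgeR interaction, adjusted p = 0.730 and 0.470).

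Prss57, a serine protease of azurophil granules, was at 52.4, 65.1, 57.7 and 59.1 CPM in SPF and 72.3, 93.2, 68.9 and 77.0 CPM in CVT, without overlap (log2 fold change 0.45 ± 0.10, SE). Slpi, an inhibitor of neutrophil elastase, was at 349 to 398 CPM in SPF and 405 to 445 CPM in CVT, also without overlap. Ly6c2 was at 679, 530, 563 and 605 CPM in SPF and 661, 746, 659 and 742 CPM in CVT. SPF pool 1 lay within the CVT range (log2 fold change 0.29 ± 0.07, SE, edgeR adjusted p = 0.413). With TMM-scaled values the groups did not overlap. The rest were Hist1h1d and Hist1h1c, linker histones, Trappc6a, Pold4 and S100a1, with log2 fold changes from 0.29 to 1.11 and adjusted p of 0.413. In all other KL cells the log2 fold changes were 0.42 for Prss57, 0.29 for Ly6c2, 0.45 for Hist1h1c and 0.31 for Hist1h1d. There they were 0.13 for Slpi, 0.090 for Trappc6a, 0.0057 for Pold4 and 0.068 for S100a1.

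The lower genes were led by Chil3, a chitinase-like protein of monocytes and neutrophils. It was at 55.0, 22.5, 36.04 and 26.1 CPM in SPF and 9.78, 5.38, 15.1 and 17 CPM in CVT, so every CVT pool lay below every SPF pool. The log2 fold change was -1.53 ± 0.29 (SE, edgeR adjusted p = 0.130). Chil3 passed with the pool set as a block (0.0133), on thinned UMIs (0.0405) and without CVT pool 6 (0.0351), but not with DESeq2. Few cells carried it: 16.5% had a UMI, and the 5 cells with most UMIs held 22.2% of its 641 UMIs. In the erythroid cells, which should lack it, Chil3 was at 13.4 CPM in CVT and 13.8 CPM in SPF. Their CVT pools 3 to 6 had 8.93, 5.10, 21.6 and 18.1 CPM, and the CVT values of the Irf8 Csf1r Ly86 cells lay within that range. In all other KL cells the log2 fold change of Chil3 was -0.70. The difference between the cell sets did not pass (edgeR interaction, adjusted p = 0.381). Lyz2 was at 966, 445, 720 and 558 CPM in SPF and 288, 254, 454 and 489 CPM in CVT, and SPF pool 2 lay within the CVT range (log2 fold change -0.80 ± 0.20, SE, adjusted p = 0.444). The other cells had nearly the same Lyz2 value, -0.77. Pirb, an inhibitory receptor of mature myeloid cells, and Naaa, a lysosomal amidase of dendritic cells and monocytes, had -1.89 and -0.94 on the log2 scale but rest on 75 and 168 UMIs in all. The Fn1 and Ccr2 cells per 100 Irf8 Csf1r Ly86 cells numbered 18.9, 6.27, 28.9 and 10.9 in the SPF pools and 2.63, 2.31, 16.5 and 9.59 in the CVT pools, and their part in these values was not tested.

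Ccnd1, the cyclin of the G1 phase, was at 30.4, 32.7, 27.8 and 25.1 CPM in SPF and 20.8, 15.9, 22.5 and 17 CPM in CVT, without overlap (log2 fold change -0.57 ± 0.13, SE, adjusted p = 0.413). The other KL cells had nearly the same Ccnd1 value, -0.53. Bop1, needed for ribosome assembly, was at 45.8 to 51.5 CPM in SPF and 28.6 to 41.1 CPM in CVT, without overlap. Its value was -0.43 in these cells and 0.13 in the other KL cells, and the difference did not pass (edgeR interaction, adjusted p = 0.185). Hsph1, a heat shock protein, Cacybp, Set and Chtf8 lay between -0.48 and -0.19, and their CVT pools also stayed below the SPF pools.

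**Figure D5:**
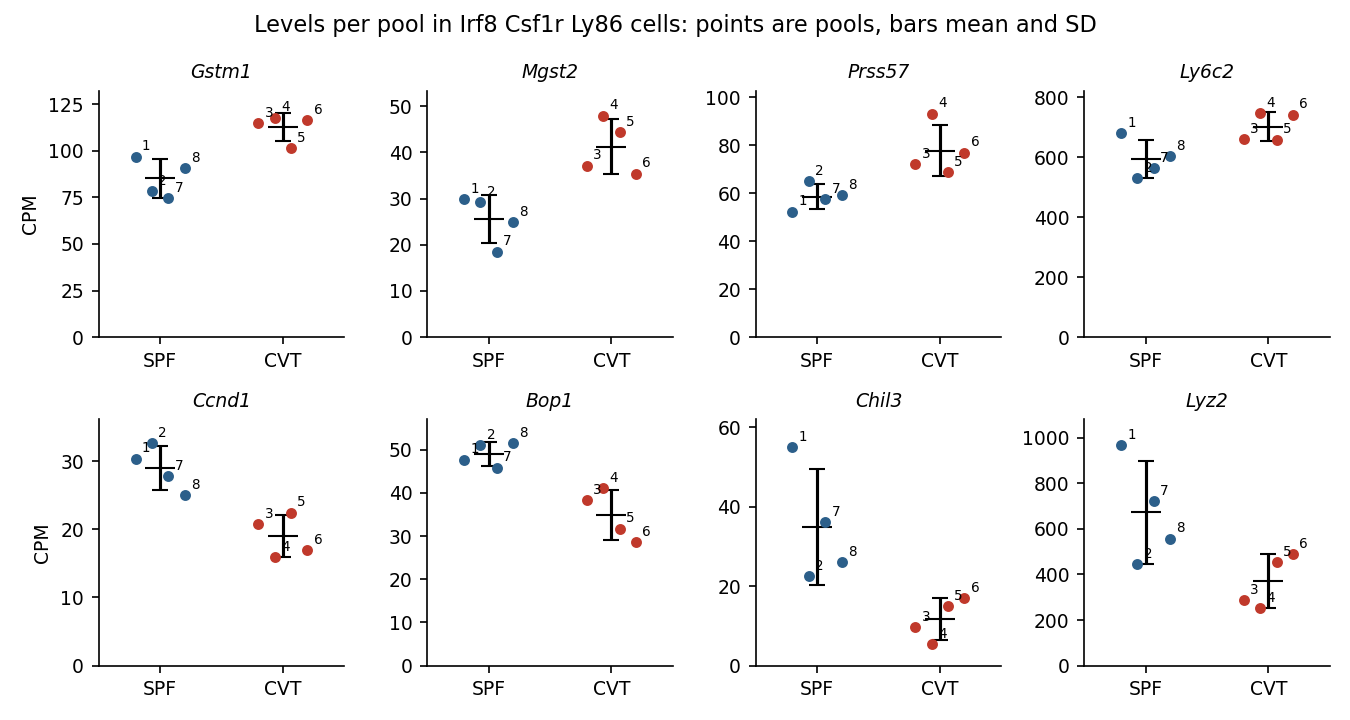
Level (CPM, y axes from 0) of 8 genes in the Irf8 Csf1r Ly86 cells of SPF (blue) and CVT (red) pools; points are pools with their numbers, and black bars are the mean and SD of 4 pools. CVT lies above SPF without overlap for Gstm1, Mgst2 and Prss57 and below for Ccnd1, Bop1 and Chil3, while Ly6c2 and Lyz2 overlap; none passed an adjusted p of 0.05 in the edgeR fit.

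By list, 0 members were called in either direction (edgeR, 0% of all genes), and the lists are described by their counts beside the all-gene median of 0.0032. The 9 azurophil granule genes all had positive log2 fold changes, with a median of 0.18, and 2 of them, Srgn and Gstm1 (on that list though not a granule protein), had CVT pools above SPF without overlap, against 1.31% of all genes. Elane was at 0.30 ± 0.11 and Mpo at 0.11 ± 0.08 (SE). The azurophil genes summed to a mean of 13068 CPM in CVT and 11942 CPM in SPF, with overlapping pools. In the other KL cells these means were 6981 and 5543 CPM, also with overlapping pools, so the higher CVT mean was not confined to the Irf8 Csf1r Ly86 cells. Of the 28 monocyte genes tested, 22 were negative and 6 positive, with a median of -0.11. The AP-1 and immediate early genes had 14 of 15 positive and a median of 0.44, but their sum spread in CVT from 385 CPM in pool 6 to 1161 CPM in pool 4, against 547 to 679 CPM in SPF. Of the 81 ribosomal protein genes tested, 76 were positive, with a median of 0.12. CVT pools lay above SPF without overlap for 22 of them and below for 1, against 1.31% and 3.84% of all genes. All 84 such genes summed to 357497 to 368137 CPM in the CVT pools and 333402 to 354264 CPM in the SPF pools. The other KL cells held 354616 to 361426 and 336026 to 347841 CPM, so both cell sets were shifted. DNA replication genes had 18 of 21 negative, with a median of -0.072. The cytokine receptors had 13 of 24 positive and the fate transcription factors 18 of 28, with medians of 0.016 and 0.051. Interferon-stimulated genes had 9 of 24 positive and a median of -0.12, microbial sensing genes 13 of 21 and 0.049, and MHC class I genes 7 of 13 and 0.00019. F13a1 was at -0.10 ± 0.07 and Tifab at -0.09 ± 0.10 (SE, adjusted p = 0.869 and 0.95), and both sets of pools overlapped.

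The last comparison is whether the CVT against SPF difference in these cells differed from that in the other KL cells. Of 11956 genes tested, 0 passed, or 0% (edgeR interaction with the pool as a factor, adjusted p under 0.05), and an unadjusted p under 0.05 was reached by 491 genes with a positive and 623 with a negative difference. No CVT effect was therefore called particular to the Irf8 Csf1r Ly86 cells.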

How the data were processed

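KL cells of 8 pools were profiled by single-cell RNA-seq (10x Chromium 3′ v2). The authors deposited 1 table of UMI counts per gene and cell, not normalized, made with Cell Ranger. The submitters' processing notes list the build mm9, while the versions and cell filters are not given in the sources used here. Pools were read from the number in the cell names and the labels. The table lists no coordinates, and promoters come from a RefSeq table of another build.

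The members and gene lists were chosen with earlier results of these data known. UMI counts were summed per pool and cell set, and CPM is the count scaled by that sum. CVT was compared with SPF by edgeR 4.0.16 (TMM, filterByExpr, glmQLFit and glmQLFTest, Benjamini-Hochberg adjusted p under 0.05) in R 4.3.3, with DESeq2 1.42.0 as an alternative. The comparison with the other cells added the pool as a factor. The fits were tested on simulated data. Shares were compared by an exact two-sided permutation test over pools (scipy 1.17.1), and intervals are 95% Wilson intervals. Cells were thinned to 2759 UMIs, the lowest total of any cell, without replacement.

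Genes were named by fixed rules: the genes of the rule and its markers, the 20 with the largest ratio to other cells, the 10 of smallest p in each direction for CVT against SPF, the most abundant members of each list, and the 5 genes most and least like Flt3 and Ly6c2. Other list members were named for their known roles after their values were seen. Alternatives changed the thresholds of the rule, the cell filter, the scaling, the low count filter, the tool and the pools. Scrublet (scanpy 1.11.5) called 0.308% of cells doublets, too few for the caller to have worked, so the 5% of cells with the highest score were removed in an alternative chosen after seeing the data. Leaving out CVT pools 3 and 4 and a robust prior were also chosen after seeing the data.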

Additional observations from a re-analysis of the deposited data

Results flagged for a closer look

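CVT pool 4 stood apart from the other CVT pools in the median depth of an Irf8 Csf1r Ly86 cell, at 16995 UMIs against 15089.5 to 15372 UMIs. It was the 1 set past Dixon's 95% critical value among 52 sets of 4 pools, and chance passes it in about 1 set in 20.

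For 3 genes the CVT against SPF difference in pools 5 to 8 departed from that in pools 1 to 4 (edgeR interaction over 9669 genes). Fosb, an AP-1 subunit, had a difference of -2.08 on the log2 scale (SE 0.27, adjusted p = 0.000855), with 22.5 and 35.7 CPM in SPF pools 1 and 2, 68.7 and 72.4 CPM in CVT pools 3 and 4, 16.1 and 9.92 CPM in CVT pools 5 and 6, and 20.6 and 25.3 CPM in SPF pools 7 and 8. Gm26737, a gene with no known role, had a difference of 3.905 (adjusted p = 0.00941) and levels of 0.936 to 10.8 CPM. Mcpt8, a protease of basophils, had a difference of -3.23 (adjusted p = 0.0392), and SPF pool 8 held 108 CPM against 11.5 to 55.1 CPM in the other pools.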

How the results depend on the processing

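The share of Irf8 Csf1r Ly86 cells was higher in CVT under 18 of 19 alternatives, with exact permutation p from 0.0857 to 0.867, and none passed. The exception was without CVT pools 3 and 4, at -0.14 percentage points. That setting, with 15 regroupings, could not have passed. Nor could the permutation within the pool sets, with 36 regroupings and a smallest possible p of 0.0556. Leaving out 1 pool gave 0.712 to 2.61 percentage points, the lowest without CVT pool 4. No paired analysis was possible because the groups share no replicate numbers. Against 0 genes higher and 0 lower in CVT (edgeR), DESeq2 gave 2 and 1, the pool set as a block 3 and 1, and no low count filter 43 and 30. The estimated prior degrees of freedom were then 892 against 12.4. Leaving out CVT pools 3 and 4 gave 5 and 8. A robust prior gave 2 higher, at least 2 UMIs of Irf8 and Csf1r 1 higher, and the rule on thinned UMIs 5 lower among 1119 genes. Leaving out 1 pool gave 0 to 4 higher and 0 to 1 lower: without CVT pool 6 there were 4 and 1, and without SPF pool 2 there was 1 lower, Clec4a3. For the difference from the other cells, 0 became 66 with no low count filter, 11 on thinned UMIs, 9 with at least 2 UMIs of Irf8 and Csf1r, 1 without CVT pools 3 and 4, and 0 to 4 leaving out 1 pool (1 without pool 4, 3 without pool 5, 4 without pool 7). Of 465 fold changes of 22 named genes, 436 kept their direction and side of the threshold, 26 passed it and 3 reversed: Cacybp (0.10) and F13a1 (0.45) on thinned UMIs, and Tifab, at 0.0204 without SPF pool 1 and down to -0.17 without SPF pool 7. For 19 pairs of gene and alternative no fold change could be fitted. The cause of these changes was not tested. Without overlap, CVT pools lay above SPF for 25.5% of the separated genes by CPM and 55.1% by TMM-scaled CPM.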

Other observations

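AP-1 and immediate early genes varied between pools in these cells and in the other KL cells alike. Their sum in the Irf8 Csf1r Ly86 cells was 576, 679, 547 and 662 CPM in SPF pools 1, 2, 7 and 8 and 947, 1161, 693 and 385 CPM in CVT pools 3 to 6. In the other cells it was 715, 982, 887 and 992 CPM in the SPF pools and 1104, 1422, 962 and 493 CPM in the CVT pools. In both cell sets CVT pool 4 was the highest and CVT pool 6 the lowest of the 8 pools.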
